A study of Homo sapiens with 8 samples.

Results

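The H3K36me3 peaks lying on PDE4B and PDE4D were examined in HepG2, an established line of human liver cancer cells. They numbered 61 of the 58863 peaks called in the 2 conditions together: 56 of 23488 in the SETD2 knockdown list and 5 of 35375 in the control list. A peak was counted when it overlapped the hg19 span of either gene by at least 1 bp, chr1:66258193-66840262 for PDE4B and chr5:58264865-59783925 for PDE4D. The genes were selected on measured values, because both spans held far more peak length in the knockdown list. Peak numbers and covered length are therefore given as a description, without a test.

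The knockdown cells (shSETD2) carried a short hairpin RNA (shRNA) directed at SETD2, and the control cells (shCtrl) expressed a non-specific shRNA. Both hairpins were delivered by lentivirus added with 4 µg/mL polybrene, and both kinds of cell were kept under 1 µg/mL puromycin. Each condition had 2 H3K36me3 immunoprecipitates and 2 input DNA libraries, which were pooled by kind before peaks were called. Each condition therefore had a single list, so the spread of replicates is not known and the conditions were not tested against each other. Neither the level of SETD2 nor defining markers of HepG2 cells could be read from these lists without hg19 gene positions, so the labels were not checked that way.

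PDE4B and PDE4D encode cAMP-specific phosphodiesterases of the PDE4 family, which hydrolyse the second messenger cyclic AMP and so limit signalling through protein kinase A. Each gene uses several start sites far apart along a very long span, and the start site decides whether a long or a short isoform is made. SETD2 is the main methyltransferase that adds the third methyl group to lysine 36 of histone H3 in human cells. It travels with elongating RNA polymerase II, and H3K36me3 is known to lie over transcribed gene bodies and to increase towards their 3′ ends.

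The start sites nearest to the 3′ ends are shown first, because the densest peaks of both genes lay at those ends. By distance from the ends, these sites lie upstream of the densest peak of their gene. RefSeq (GRCh38.p14) lists 6 start sites for PDE4B, gene ID 5142, on the plus strand, and 8 for PDE4D, gene ID 5144, on the minus strand. Each window below holds 250 bases before the start site in lower case and 50 bases from the start site on in capitals, 5′ to 3′ on the gene's strand. For PDE4B these are chr1:66331858-66332157, whose start site is 42.5 kb from the annotated 3′ end, and chr1:66354285-66354584, at 20.04 kb. For PDE4D these are chr5:59039427-59039726, at 70.4 kb, and chr5:58999849-59000148, at 30.9 kb.
PDE4B start site 5: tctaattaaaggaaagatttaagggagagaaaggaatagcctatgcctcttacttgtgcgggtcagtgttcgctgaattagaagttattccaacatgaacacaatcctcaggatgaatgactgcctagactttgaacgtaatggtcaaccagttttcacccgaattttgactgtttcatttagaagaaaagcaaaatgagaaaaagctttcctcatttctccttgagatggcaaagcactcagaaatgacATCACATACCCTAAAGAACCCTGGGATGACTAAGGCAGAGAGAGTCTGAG
PDE4B start site 6: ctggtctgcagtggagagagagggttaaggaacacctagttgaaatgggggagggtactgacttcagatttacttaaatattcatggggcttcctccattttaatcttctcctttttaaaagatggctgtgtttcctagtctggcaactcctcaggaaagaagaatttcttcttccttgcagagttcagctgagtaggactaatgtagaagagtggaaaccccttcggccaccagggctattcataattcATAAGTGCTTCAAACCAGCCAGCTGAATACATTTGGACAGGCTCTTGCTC
PDE4D start site 7: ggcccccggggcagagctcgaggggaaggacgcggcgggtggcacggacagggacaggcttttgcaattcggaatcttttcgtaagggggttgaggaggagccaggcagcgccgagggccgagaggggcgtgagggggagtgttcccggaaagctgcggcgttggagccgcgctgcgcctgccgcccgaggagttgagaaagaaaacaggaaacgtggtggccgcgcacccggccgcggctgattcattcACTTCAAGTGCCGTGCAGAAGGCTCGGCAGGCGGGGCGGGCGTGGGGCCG
PDE4D start site 8: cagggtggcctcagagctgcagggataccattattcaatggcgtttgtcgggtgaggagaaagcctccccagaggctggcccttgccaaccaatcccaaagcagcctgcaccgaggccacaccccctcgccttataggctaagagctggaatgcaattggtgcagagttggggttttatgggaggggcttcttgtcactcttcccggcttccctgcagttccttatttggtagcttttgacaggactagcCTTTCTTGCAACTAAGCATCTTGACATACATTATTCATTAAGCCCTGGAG

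The 4 windows differed in base composition. The PDE4B windows held 40.3% and 44.3% G or C with 4 and 1 CG pairs, in the order shown. The PDE4D windows held 68.3% and 52.7% G or C with 32 and 5 CG pairs. Over 35116 windows of the same length in the RefSeq table the medians were 58.7% and 14 CG pairs, so PDE4D start site 7 was the one of the 4 above both medians. The cAMP response element TGACGTCA, searched on both strands, was in none of the 14 windows of these genes and in 1.85% of all windows. Its shorter form TGACG, which also lies within every TGACGTCA, was in 1 of the 14, PDE4D start site 4, and in 24.6% of all windows. Coordinates of the 2 builds were not converted, so positions in the gene are compared only as distances from its ends. The PDE4B span has the same length in both builds, 582070 bp, whereas that of PDE4D is 1519061 bp in hg19 and 1553091 bp in GRCh38.p14.

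PDE4B carried 38 peaks in the shSETD2 list and 0 in the shCtrl list. The shSETD2 peaks covered 172 kb, or 29.6% of the gene, against 0 kb in shCtrl cells. They held 11141 tags, a density of 0.965 tags per kb per 1000000 filtered tags (exact Poisson 95% interval 0.947 to 0.983). That is 2.86 times the mean density outside peaks in the same library, 0.337. Tags are the aligned reads that the peak caller kept, and intervals cover counting error only. No tag count exists for PDE4B in the shCtrl list, which gives counts inside called peaks, so the density of shCtrl cells over this gene is not known from these files.

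Most of the PDE4B peaks were narrow and a few were wide. Widths ran from 1.09 to 19.0 kb with a median of 2.32 kb, and 26 of the 38 were under 4 kb. Most shSETD2 peaks of the whole list were under 4 kb too, with a median of 3.27 kb. The 4 peaks of 10 kb or more, against 2161 of 23488 in the list, made up 67.3 kb of the cover. Density ran from 0.621 to 1.40 with a median of 0.812, below the median of 0.907 over all shSETD2 peaks. Those were wider, and shSETD2 peaks near 2.06 and 2.75 kb in width had medians of 0.811 and 0.868. Fold enrichment over background, as given in the authors' deposited table, ran from 2.60 to 10.27 with a median of 3.83, near the list's median of 3.71.

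Peaks of PDE4D were fewer and sparser. The shSETD2 list had 18 peaks over 72.3 kb, 4.76% of the gene, and the shCtrl list had 5 peaks over 13.6 kb, 0.895% of the gene. The shSETD2 peaks held 5095 tags, a density of 1.05 (1.02 to 1.08), and the shCtrl peaks held 656 tags, a density of 1.01 (0.932 to 1.09). These intervals overlap, and the densities describe different stretches of the gene. Widths ran from 1.26 to 25.8 kb (median 1.86 kb) in shSETD2 cells and from 1.13 to 3.51 kb in shCtrl cells. Of the 18 shSETD2 peaks, 14 were under 4 kb and 1 was over 10 kb. In the whole shSETD2 list the median width was 3.27 kb, and 2161 of 23488 peaks had 10 kb or more. Fold enrichment of the 18 peaks ran from 2.60 to 7.82 with a median of 3.56.

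**Figure D1:**
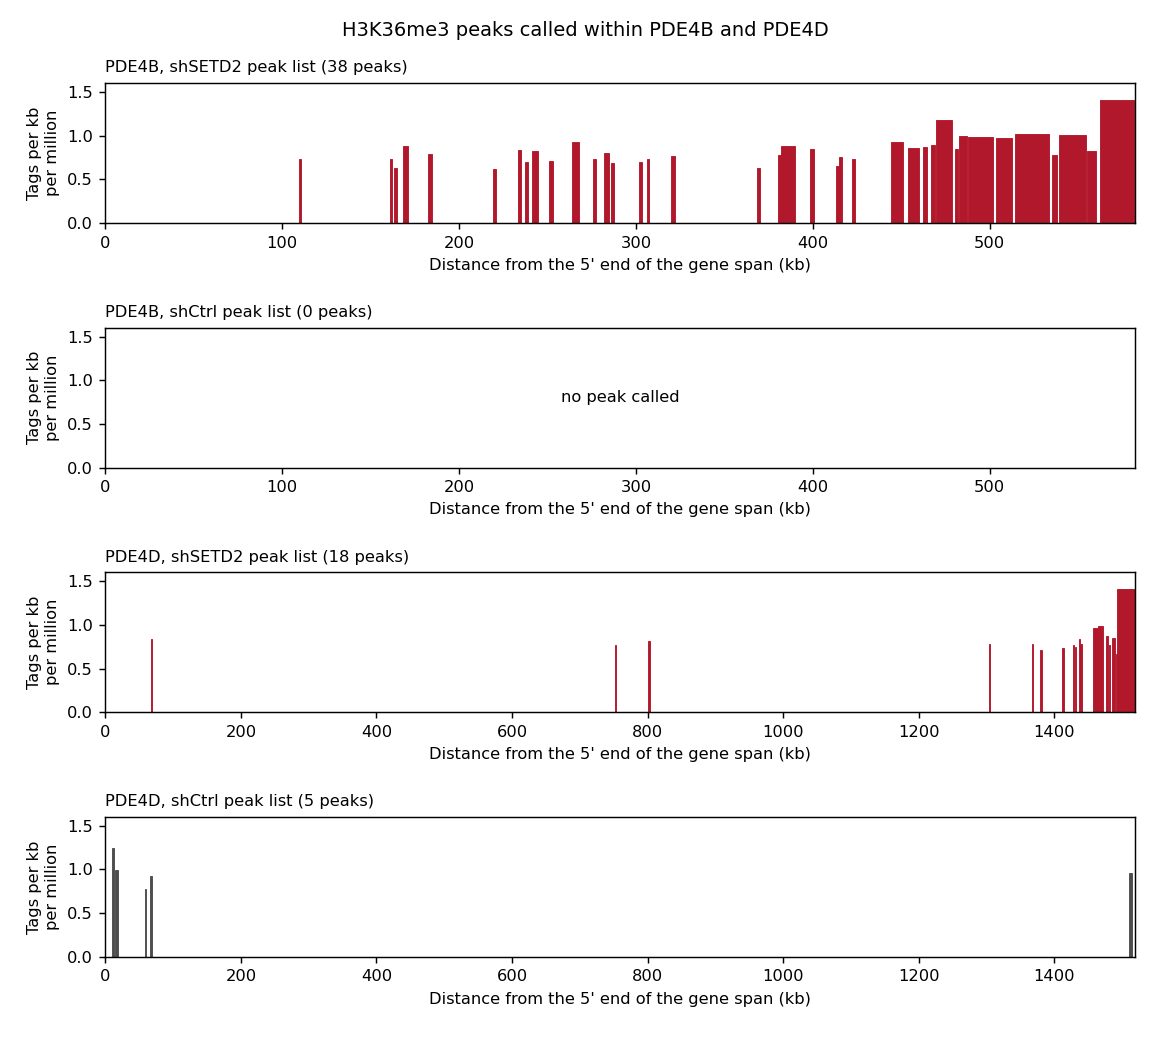
Peaks called within PDE4B and PDE4D in the shSETD2 and shCtrl lists; the horizontal axis is the distance from the 5′ end of the gene span in kb, the width of a bar is the width of a peak and its height is the tag density in tags per kb per 1000000 filtered tags. In both genes the densest shSETD2 peak, 1.40 in PDE4B and 1.41 in PDE4D, ends at the 3′ end, PDE4B has no shCtrl peak, and 4 of the 5 shCtrl peaks of PDE4D lie near its 5′ end.

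The peaks of the 2 lists met at 2 places in PDE4D. At the 3′ end, the shSETD2 peak chr5:58264982-58290755 spanned 25.8 kb with 2435 tags, a density of 1.41 (1.35 to 1.47). The shCtrl peak inside it, chr5:58269593-58272891, spanned 3.30 kb with 151 tags, a density of 0.956 (0.810 to 1.12). The difference was 0.56 on the log2 scale, and the counting intervals did not overlap. The 2 peaks differ in width, and median density rose with width in both lists. Outside peaks, too, density was higher in shSETD2 cells, at 0.337 against 0.235 in shCtrl cells. A local gain in signal is therefore not read from this pair. Near the 5′ end, the shSETD2 peak chr5:59715616-59717201 had 89 tags over 1.59 kb, a density of 0.837 (0.672 to 1.03). The shCtrl peak there, chr5:59715277-59717992, had 121 tags over 2.72 kb, a density of 0.930 (0.772 to 1.11). This pair differed by -0.15 on the log2 scale with overlapping intervals. Peak length was thus greater in shSETD2 cells at the 3′ end of PDE4D, and greater in shCtrl cells near its 5′ end.

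The other 16 shSETD2 peaks of PDE4D, and all 38 of PDE4B, overlapped no shCtrl peak. Over the whole list this held for 3991 of 23488 shSETD2 peaks, or 17.0%. Since the genes were chosen for this contrast, nothing is read from that difference. In the other direction, 3 of the 5 shCtrl peaks of PDE4D overlapped no shSETD2 peak, against 60.5% of all shCtrl peaks. These 3 lay within the first 60 kb from the 5′ end, at chr5:59724743-59725869, chr5:59765539-59769052 and chr5:59771720-59774665. The last of them was the densest shCtrl peak of the gene, at 1.24 (1.06 to 1.44) from 175 tags.

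In both genes the shSETD2 peaks were concentrated towards the 3′ end. When PDE4B was divided into 10 equal parts from 5′ to 3′, covered length was 0, 1.57, 6.07, 4.27, 18.8, 5.09, 13.3, 20.4, 50.9 and 51.8 kb. The last 2 parts were covered to 87.5% and 88.9%. Tag density was between 0.720 and 0.841 in the covered parts up to the eighth, 1.02 in the ninth and 1.11 in the last. Density inside peaks was therefore highest where cover was highest, which is also where the widest peaks lay. Over the whole shSETD2 list median density rose with width, from 0.719 near 1.16 kb to 1.43 near 20.7 kb. Position in the gene was not separated from peak width. In PDE4D the last part held 65.1 kb, or 90.1% of the shSETD2 cover, and no other part held more than 2.53 kb. The shCtrl cover of PDE4D ran the other way, with 10.3 kb in the first part and 3.30 kb in the last. The last 100 kb of PDE4B held 89.5 kb of shSETD2 peaks, 52.0% of the gene's cover, against 0 kb of shCtrl peaks. The last 100 kb of PDE4D held 58.7 kb, 81.2% of its cover, against 3.30 kb.

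**Figure D2:**
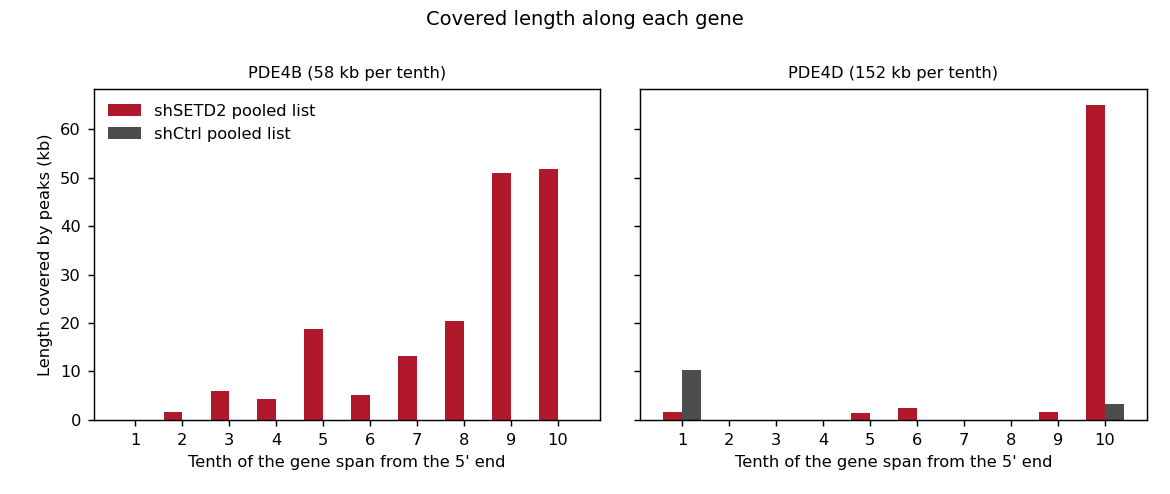
Covered length in kb in each of 10 equal parts of PDE4B and PDE4D from 5′ to 3′, for the shSETD2 and shCtrl lists. shSETD2 cover reaches 50.9 and 51.8 kb in the last 2 parts of PDE4B and 65.1 kb in the last part of PDE4D, where shCtrl cover is 0, 0 and 3.30 kb.

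The highest PDE4B peak, chr1:66820770-66839792, closed the gene. It was 19.0 kb wide, began 563 kb from the 5′ end and ended 0.471 kb before the 3′ end. It held 1791 tags, a density of 1.40 (1.34 to 1.47), with a fold enrichment of 10.27, which ranked 78 among the 23488 shSETD2 peaks. In the annotation, start site 6 lies 562 kb from the 5′ end, about where this peak began. Start site 5 lies 540 kb from the 5′ end, within the distance range of the wide peak chr1:66797267-66812720, which ran from 539 to 555 kb. That neighbour held 1049 tags over 15.5 kb, a density of 1.01 (0.952 to 1.08).

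Further upstream in PDE4B, all peaks were less dense than the last one. The peak chr1:66772713-66791431 held 1284 tags over 18.7 kb, a density of 1.02, and chr1:66746063-66760117 held 932 tags over 14.1 kb, a density of 0.989. Both were below the medians of all shSETD2 peaks near those widths, 1.43 near 20.7 kb and 1.35 near 15.5 kb. The last peak, at 1.40 over 19.0 kb, was slightly below the first of these medians. The peak chr1:66727909-66736889 stood above its surroundings, with 712 tags over 8.98 kb, a density of 1.18 (1.10 to 1.27) and a fold of 6.16. The first peak of the gene, chr1:66367434-66369006, lay 109 kb from the 5′ end and held 77 tags, a density of 0.730 (0.576 to 0.912). The first 109 kb, with annotated start sites 1 and 2, held no peak in either list.

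In PDE4D, the peaks upstream of the 25.8-kb one were narrower and less dense. The peak chr5:58311362-58318670 held 485 tags over 7.31 kb, a density of 0.990 (0.903 to 1.08), and chr5:58319085-58327301 held 533 tags over 8.22 kb, a density of 0.967 (0.887 to 1.05). The 25.8-kb peak reached to 0.118 kb before the 3′ end and began 25.9 kb upstream of it. Its density of 1.41 was below the median of all shSETD2 peaks near 27.7 kb in width, 1.62. Only 3 shSETD2 peaks of PDE4D lay more than 250 kb from its 3′ end, with 138, 78 and 89 tags.

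Joining shSETD2 peaks no more than 3000 bp apart gave 15285 domains, of which 2232 touched no shCtrl peak. The joined PDE4B domain chr1:66702634-66839792 took in 14 peaks and 8272 tags over 137 kb, and was the longest of all 15285. Its density was 0.899, with the gaps counted in the length but not in the tags. The domains next in length lay at chr6:90356097-90472764, with 117 kb, and chr12:101675132-101781914, with 107 kb, and neither touched a shCtrl peak. The longest joined domain of PDE4D, chr5:58264982-58307375, had 42.4 kb and ranked 134. It was followed upstream by a domain of 15.9 kb.

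The shSETD2 cover did not stop at the 3′ end of PDE4D. The 110 kb beyond it held 13 shSETD2 peaks over 78.8 kb, 71.6% of that stretch, and 0 shCtrl peaks. The longest joined domain there, chr5:58165252-58227642, had 62.4 kb and 3655 tags, more length than any joined domain inside PDE4D. The nearest shSETD2 peak lay 4.15 kb past the end of the gene. Beyond PDE4B, by contrast, the same distance held 3 shSETD2 peaks over 5.93 kb and 0 shCtrl peaks, and the nearest shSETD2 peak lay 7.55 kb past the end. In the RefSeq table the protein-coding neighbour on the 3′ side is SGIP1 for PDE4B and RAB3C for PDE4D. Which of these stretches lie in a neighbouring gene on hg19 was not determined.

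On the 5′ side of PDE4B, where LEPR, the leptin receptor gene, is the protein-coding neighbour, a flank as long as the gene held 27 shSETD2 peaks over 105.9 kb and 3 shCtrl peaks over 24.3 kb. Those 3 shCtrl peaks were denser, at 1.58 (1.51 to 1.65), against 0.953 (0.931 to 0.976) for the shSETD2 peaks. The 5′ flank of PDE4D held 21 shSETD2 peaks over 66.9 kb and 29 shCtrl peaks over 136.5 kb. The shCtrl peaks nearest to PDE4B were 358.5 kb before and 565 kb after it. The 3′ flank of PDE4B of the same length held 6 shSETD2 peaks over 10.4 kb and 1 shCtrl peak over 4.11 kb. Excess shSETD2 cover was therefore large on the 5′ side of PDE4B and the 3′ side of PDE4D, and small on the 3′ side of PDE4B. It was not present on the 5′ side of PDE4D. ChIP does not tell strands apart, so genes that lie inside the spans, among them PDE4B-AS1, PDE4D-AS1 and PART1, cannot be separated from PDE4B and PDE4D.

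The fold enrichments of PDE4B peaks mostly rested on the genome-wide background. The peak caller divides the tags at a peak's summit by the highest of a genome-wide mean and the local input. Where local input is not above the mean, the fold is a whole number of tags divided by 7.30, the mean number of tags per 294-bp fragment length in shSETD2 cells. This held, within the rounding of the deposited folds, for 36 of 38 PDE4B peaks, with 19 to 75 tags at the summit. It held for 11 of 18 PDE4D peaks, and for 26.8% of all shSETD2 peaks. Among the 3991 shSETD2 peaks off shCtrl peaks the share was 27.6%, and on chromosomes 1 and 5 it was 29.2% and 27.9%. Some folds match a whole number by rounding alone. No input counts are in the lists, so the part of input depth in the PDE4B calls was not tested.

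By the authors' own statistics most of these peaks were weak. The deposited FDR, which comes from calls with immunoprecipitate and input exchanged, ran from 2.44% to 91.47% in PDE4B (median 70.1%) and from 8.57% to 87.7% in the shSETD2 peaks of PDE4D (median 80.2%). For the 5 shCtrl peaks of PDE4D it ran from 4.97% to 17.79%. An FDR of 5% or less was reached by 1 of 38 PDE4B peaks and 0 of 18 PDE4D peaks, against 5.30% of all shSETD2 peaks. Counting such peaks alone, PDE4B held 19.0 kb in shSETD2 and 0 kb in shCtrl cells, whereas PDE4D held 0 kb in shSETD2 and 3.30 kb in shCtrl cells, the reverse of its direction in the full lists. A fold of 5 or more was reached by 4 of 38 and 2 of 18, against 17.6%. All 4 counts gave shares below that of the list. They rest on few peaks, with narrower median widths than the list, so they are not read as a trait of the genes. The median FDR of PDE4B, 70.1%, was close to the 68.9% of the list. The lists themselves differ in this statistic, with a median FDR of 68.9% in shSETD2 and 4.86% in shCtrl.

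Depth differed between the conditions, with 67053273 filtered H3K36me3 tags in shSETD2 cells and 47880817 in shCtrl cells, a ratio of 1.40. The pooled inputs held 69095038 and 67158956 filtered tags. Outside peaks the density was 0.337 in shSETD2 and 0.235 in shCtrl cells, and the least dense peak of each list had 0.595 and 0.667. Each shSETD2 peak was set beside the shCtrl peaks whose width was within 25% of its own. In PDE4B 7 of 38 peaks, and in PDE4D 1 of 18, were less dense than the least dense shCtrl peak of like width. Of the 56, 0 were denser than the shCtrl median of like width. The whole shSETD2 list was less dense too, with a lower median and minimum than shCtrl peaks in every width bin. Near 2.06 kb the medians were 0.811 and 0.934, and near 20.7 kb they were 1.43 and 2.00. The share of all shSETD2 peaks below these limits was not counted, so the counts are not read as a trait of the 2 genes. The top PDE4B peak, at 1.40, was as dense as or denser than 11.6% of 2275 shCtrl peaks of like width, which started at 1.04 and had a median of 1.86. The 25.8-kb PDE4D peak was as dense as or denser than 3.70%. The part of depth in the absence of shCtrl peaks was not tested.

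**Figure D3:**
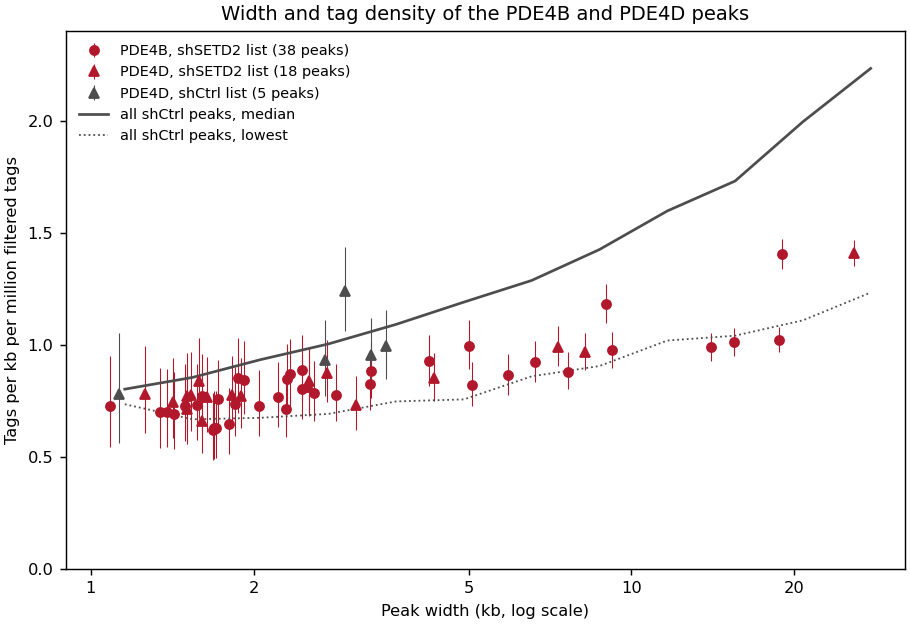
Tag density (tags per kb per 1000000 filtered tags) against peak width (kb, log axis) for the shSETD2 peaks of PDE4B and PDE4D and the 5 shCtrl peaks of PDE4D; vertical bars are exact Poisson 95% intervals, and the lines give the median and lowest density of all shCtrl peaks binned by width. The shSETD2 peaks lie below the shCtrl median of like width, and 7 PDE4B peaks and 1 PDE4D peak lie below the least dense shCtrl peak within 25% of their width. Over the whole shSETD2 list, which is not drawn, the median was also below that of shCtrl peaks in every width bin.

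PDE4B was chosen on this contrast, and its excess was larger than in any window of its length that touched neither gene. The genome was divided into windows of 582 kb, of which 3178 held a peak in either list. Their median cover was 24.0 kb in shSETD2 and 59.3 kb in shCtrl, the median difference was -29.0 kb, and 324 windows (10.2%) had more cover in shSETD2. Of them, 5 touched PDE4B or PDE4D, and 1 of these, chr1:66355981-66938050, which takes in most of PDE4B, had an excess of 178 kb. Among the 3173 windows that touched neither gene, the largest excess was 111.0 kb, against 172 kb over the PDE4B span. Of the 3178 windows 15, or 0.472%, had at least 2 times and at least 50 kb more cover in shSETD2, and 3 of the 15 touched PDE4B or PDE4D. The shSETD2 cover itself was less unusual, since 14 windows that touched neither gene had more. Among windows with no shCtrl peak that touched neither gene, the largest shSETD2 cover was 42.8 kb.

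The excess at PDE4D was smaller and less rare. Among 1591 windows of 1519 kb, median cover was 51.0 kb in shSETD2 and 121 kb in shCtrl, and 112 windows (7.04%) had more cover in shSETD2. Of the 1587 windows that touched neither gene, 12 had an excess above the 58.7 kb of PDE4D, up to 98.0 kb, and 610 had more shSETD2 cover than its 72.3 kb. The largest excess of any window this long, 290.1 kb, was in chr1:65319624-66838684, with 348 kb in shSETD2 and 58.1 kb in shCtrl. That window holds nearly all of PDE4B and a long stretch before it, and the PDE4B span alone had an excess of 172 kb. Windows with at least 2 times and at least 50 kb more in shSETD2 numbered 8, or 0.503%, and 2 of the 8 touched PDE4B or PDE4D. The genes were chosen on this contrast, so these positions describe how they were found.

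**Figure D4:**
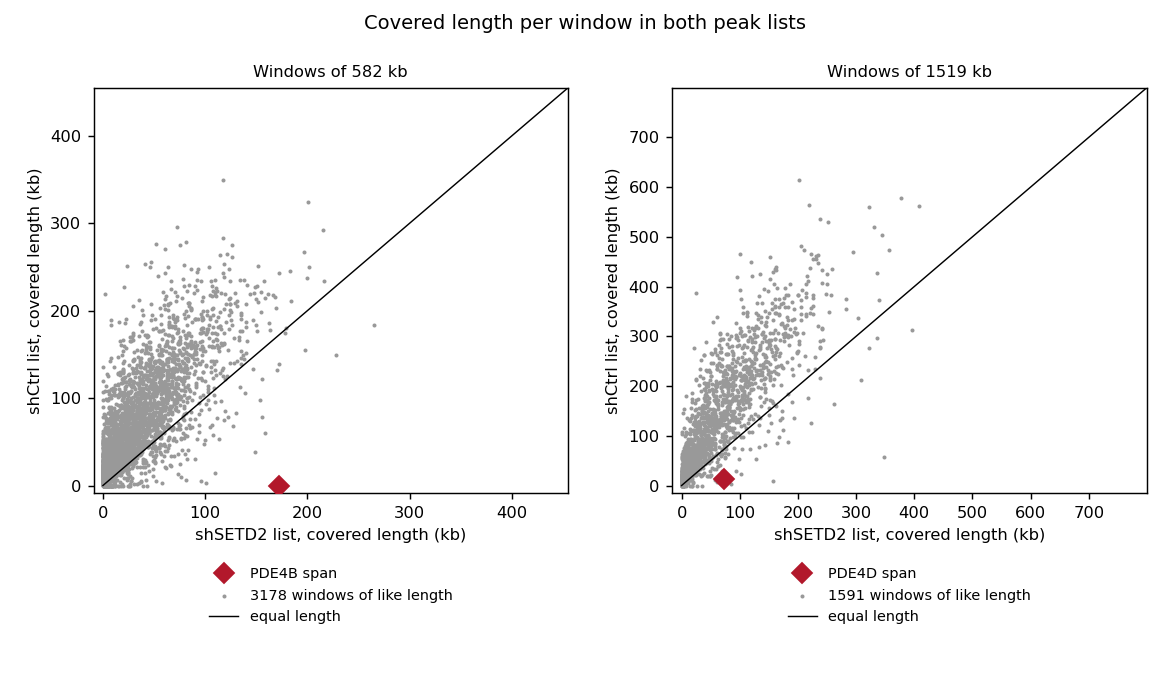
Covered length in kb per window in the shSETD2 list (horizontal) and the shCtrl list (vertical) for 3178 windows of the length of PDE4B and 1591 of the length of PDE4D; the line marks equal length and the diamond marks the gene. Most windows lie above the line, with more cover in shCtrl, whereas PDE4B lies at 172 and 0 kb and PDE4D at 72.3 and 13.6 kb.

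Both genes lay on chromosomes with less cover in the knockdown. Peaks on chromosome 1 covered 68.7% of the shCtrl length in shSETD2 cells, and 67.9% without PDE4B. On chromosome 5 the values were 62.5% and 61.9% without PDE4D. The surroundings of PDE4B differed from its chromosome. The windows of 1519 kb on each side of the one with nearly all of PDE4B had differences (shSETD2 minus shCtrl) of 94.8 and 77.1 kb. On each side of the windows that touch PDE4D the differences were -68.7 and -92.4 kb. Among the shSETD2 peaks that overlapped no shCtrl peak, PDE4B supplied 0.952% by number and 0.987% by length. Those 3991 peaks had a median width of 3.10 kb, a median density of 0.872 and a median fold of 3.50, against 2.32 kb, 0.812 and 3.83 in PDE4B.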

How the data were processed

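H3K36me3 immunoprecipitates and input DNA of HepG2 cells were sequenced in 2 replicates per group. The submitters' processing notes name the build hg19 and the tools FastQC 0.11.5 and Bowtie 1.1.2. MACS 1.4.2 called peaks 1 time per condition, on merged replicates with merged input as control, per the file headers. They give a fragment size of 294 bp, a p-value cutoff of 1e-05 and a genome size of 2.7 Gb.

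The deposited tag counts are raw counts per peak. In the deposited score, a p-value stands on a negative log10 scale, multiplied by 10. Fold enrichment, also deposited, is a ratio of tags to background. The deposited FDR is in percent. Score, fold and FDR were computed within each condition. They were also set side by side between lists, and the same limits were applied to both lists, as a description only. The shorter lists held exactly the 1244 shSETD2 and 17856 shCtrl peaks with an FDR of 5% or less.

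Peaks overlapping the gene spans by 1 bp or more were taken, and overlaps between lists used the same minimum. Tag density is the number of tags in a kb of peak for each 1000000 filtered tags, with exact Poisson 95% intervals. Depths were 67053273 filtered tags in shSETD2 and 47880817 in shCtrl. Every peak in the spans could be named, and outside them the 5 windows of 1 Mb with the largest excess of shSETD2 cover that touch neither gene. Merged domains outside the spans were named after their values were seen. The members and lists were chosen with earlier results of these data known. Alternatives were stricter peak limits, merged peaks, extended spans, 50% overlap, all tags as depth, and other windows. A planned comparison with other cAMP pathway genes was not run, since their hg19 positions were not used here. The sources used here do not say if replicates were separate cultures. Python 3.11.15, pandas 2.3.3, NumPy 2.4.6, SciPy 1.17.1 and matplotlib 3.10.9 were used, and the steps were tested on simulated data.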

Additional observations from a re-analysis of the deposited data

How the results depend on the processing

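The PDE4B excess could not change direction under any peak limit tried, because its span held 0 shCtrl peaks. Its direction is therefore not read as robust. The excess of PDE4D reversed only with an FDR of 5% or less and with the shorter lists, which hold the same peaks. This limit kept 1244 shSETD2 and 17856 shCtrl peaks. With an FDR of 5% or less, and with the shorter lists, PDE4B kept an excess of 19.0 kb and 1 peak, while PDE4D had -3.30 kb and -1 peak (shSETD2 minus shCtrl), from 0 shSETD2 peaks and 1 shCtrl peak. With a fold of 5 or more, the excess was 60.8 kb and 4 peaks in PDE4B, and 26.8 kb and 0 peaks in PDE4D. The shSETD2 densities were then 1.16 in PDE4B and 1.32 in PDE4D. With a score of 100 or more the excess in number was 23 and 5 peaks, and with peaks merged within 3000 bp it was 18 and 7, against 38 and 13. Under the score limit of 227.88, at which shCtrl peaks reach a 5% FDR, the excess was 107.8 kb in PDE4B and 42.3 kb in PDE4D. With all tags in place of filtered tags as depth, the densities were 0.848 in PDE4B and 0.924 in PDE4D. With no minimum length, 4.31% and 2.58% of windows had at least 2 times more shSETD2 cover. Including the 42.3 kb of PDE4D, 13 of the values tried moved by less than 1.5 times or stayed within their counting interval. The cause of the changes was not tested. No paired analysis was possible because the replicates were pooled before peak calling, and no replicate could be left out for the same reason.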

Other observations

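The deposited scores of wide PDE4B peaks did not follow their tags. The 15.5-kb peak chr1:66797267-66812720 held 1049 tags but had a score of 107.56 and an FDR of 77.78%, whereas chr1:66761565-66770762 held 601 tags over 9.20 kb with a score of 827.82 and an FDR of 7.04%. The 25.8-kb PDE4D peak ranked 243 among shSETD2 peaks by tags, with a score of 357.05 and an FDR of 32.68%.

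Outside both genes, 5 windows of 1 Mb had the largest excess of shSETD2 cover. The window before that of PDE4B, chr1:65000001-66000000, held 224 kb of shSETD2 and 88.7 kb of shCtrl peaks, and 16 of its 55 shSETD2 peaks had folds on the genome-wide background. The window chr1:68000001-69000000 held 120 kb of shSETD2 and 20.7 kb of shCtrl peaks, and there 29 of 36 had such folds. The window chr6:90000001-91000000 held 155 kb of shSETD2 and 54.6 kb of shCtrl peaks, with 13 of 24. In chr12:101000001-102000000 the cover was 109 kb in shSETD2 and 19.8 kb in shCtrl, with 3 of 17. In chr1:85000001-86000000 it was 176 kb in shSETD2 and 86.5 kb in shCtrl, with 11 of 38. In the window that holds PDE4B, chr1:66000001-67000000, cover was 187 kb in shSETD2 and 0 kb in shCtrl, with 40 of 45.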
